A study of Mus musculus with 6 samples.

Results

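Ribosomal protein transcripts were followed in mouse embryonic fibroblasts, cells grown in culture from the connective tissue of embryos. They either carried intact Klf4 (Klf4 +/+, wild type) or lacked it (Klf4 -/-, called Klf4-null here). Klf4 encodes a Kruppel-like zinc-finger transcription factor. The labels describe 3 wild-type and 3 Klf4-null samples of strain C57Bl/6 with an age of 13 days, each measured on 1 Illumina array, and the title of the series ties loss of the gene to proliferation and tumours. No treatment is named for either group, and the labels do not say whether the replicates were separate embryos or cultures, so the p-values reflect the spread among these 6 arrays alone, and that spread may be technical.

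Members were the probes whose deposited gene symbol names a cytosolic ribosomal protein, that is Rpl or Rps followed by a digit, or Rplp0, Rplp1, Rplp2 or Rpsa, without the Rps6k kinases and without pseudogene symbols. This gave 73 of the 46621 probes on the array, which read 51 of 32291 gene entries. Some of those entries are identifiers and not gene names. Of the 73 probes, 44 belonged to the large subunit and 29 to the small subunit. No member probe carried the symbol Rpl3, Rpl5, Rpl7, Rpl11, Rps6, Rps27 or Rplp1, among others. The counts, medians and shares below therefore cover only part of the proteins of the ribosome. The letters of the rule also took in Rpl7l1, a paralog of Rpl7, and Rps19bp1, a protein that binds Rps19, which are not known as stable parts of the ribosome. They were kept, and counts without them are given as well.

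The cytosolic ribosome translates messenger RNA. Its small subunit holds the message and decodes it, and its large subunit joins the amino acids and releases the chain through a tunnel. Ribosomal proteins are made in near-equal amounts, and most of their messages begin with a run of pyrimidines (C or T in the gene) through which growth signals relayed by the mTOR kinase set how much is translated. A few have paralogs with restricted expression, and several have roles outside the ribosome, such as holding back Mdm2, the ubiquitin ligase of p53.

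Values are deposited intensities that share nearly the same distribution on every array, as normalized values do, with no count behind them, so each describes a transcript relative to the rest of its array. In such bulk samples, fewer cells of a type and less RNA per cell cannot be told apart. Arrays correlated at 0.995 to 0.998 within a group and at 0.947 to 0.951 between the groups. Of 3 Klf4 probes, ILMN_1241903 and ILMN_1221264 were lower on every null array, at 39.7 to 46.8 and 41.3 to 45.4 against 95.6 to 103 and 63.2 to 78.0. Both were dim, and neither was above background on any null array, so the falls are bounds of at least 1.83-fold and 1.27-fold. Probe ILMN_2593684 was higher, at 702 to 737 against 380.1 to 494. Whether a probe lies inside the deleted sequence is not given in the sources used here. Of 10 fibroblast markers, 9 were above background on all 6 arrays, and Thy1 was above it on the 3 wild-type arrays only. Of 22 markers of epithelial, endothelial, blood, muscle and neural cells, 5 were above background on all 6 arrays (Kdr, Cd68, Hbb-b1, Hba-a1 and Tubb3), and among those above it on no array were Epcam, Ptprc and Myod1. The summed intensity of the fibroblast markers was 39383 to 41678 in wild type and 42432 to 45413 in null cells. Vim, which was not called, adds the most to these sums (20415 to 21019 and 20467 to 20826). Col1a1 adds means of 5313 and 10926, and Thy1 means of 3307 and 49.2, so single genes weigh heavily in the sums of this list. Within that list, Col3a1 was 5.65-fold and Col1a1 2.10-fold higher in null cells, and Thy1 was at least 60.9-fold, Pdgfra 1.80-fold and Col1a2 1.26-fold lower, each with a limma adjusted p under 0.05. The sums of the other 5 lists overlapped between the groups, the blood list for example at 498 to 508 and 483 to 522. Within these lists, the dim markers Sox2 (log2 change 0.41), Cdh5 (-0.27) and Hba-a1 (-0.34) had a limma adjusted p under 0.05. Their other tested markers were not called. The part of other cells in the results was not tested.

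A probe was tested for Klf4-null against wild type where its intensity exceeded an estimated background on 3 or more of the 6 arrays, which held for 66 of the 73 member probes, reading 46 genes. Changes are called at an adjusted p under 0.05 by limma, adjusted over all 21825 probes tested. The tested members changed about as much as other probes, with a median size of the log2 change of 0.15 against 0.16 over all probes tested. Rpl29 and Rpl30 rose by more than 2-fold, Rpl39l and Rps3a1 (deposited as Rps3a) fell by more than 2-fold, and the remaining 62 tested probes lay within 2-fold. Of all probes tested, 6.39% were called with a change of at least 2-fold. In all, 6 probes rose and 18 fell, while 42 were not called. The 24 calls make up 36.4% of the tested members, against 38.9% of all probes tested, so the share of calls was near the background. By direction, 9.09% of tested members rose against 19.0% of all probes, and 27.3% fell against 19.9%. The falls include Rpl39l, Rpl3l and a probe of Rps18, which entered the test through the wild-type arrays alone and had to be lower. These shares by direction are therefore given without being read as a difference from the other probes. The median log2 change was -0.06 over the tested members and -0.02 over all probes. Without Rpl7l1 and Rps19bp1, 6 rose and 16 fell of 62.

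**Figure D1:**
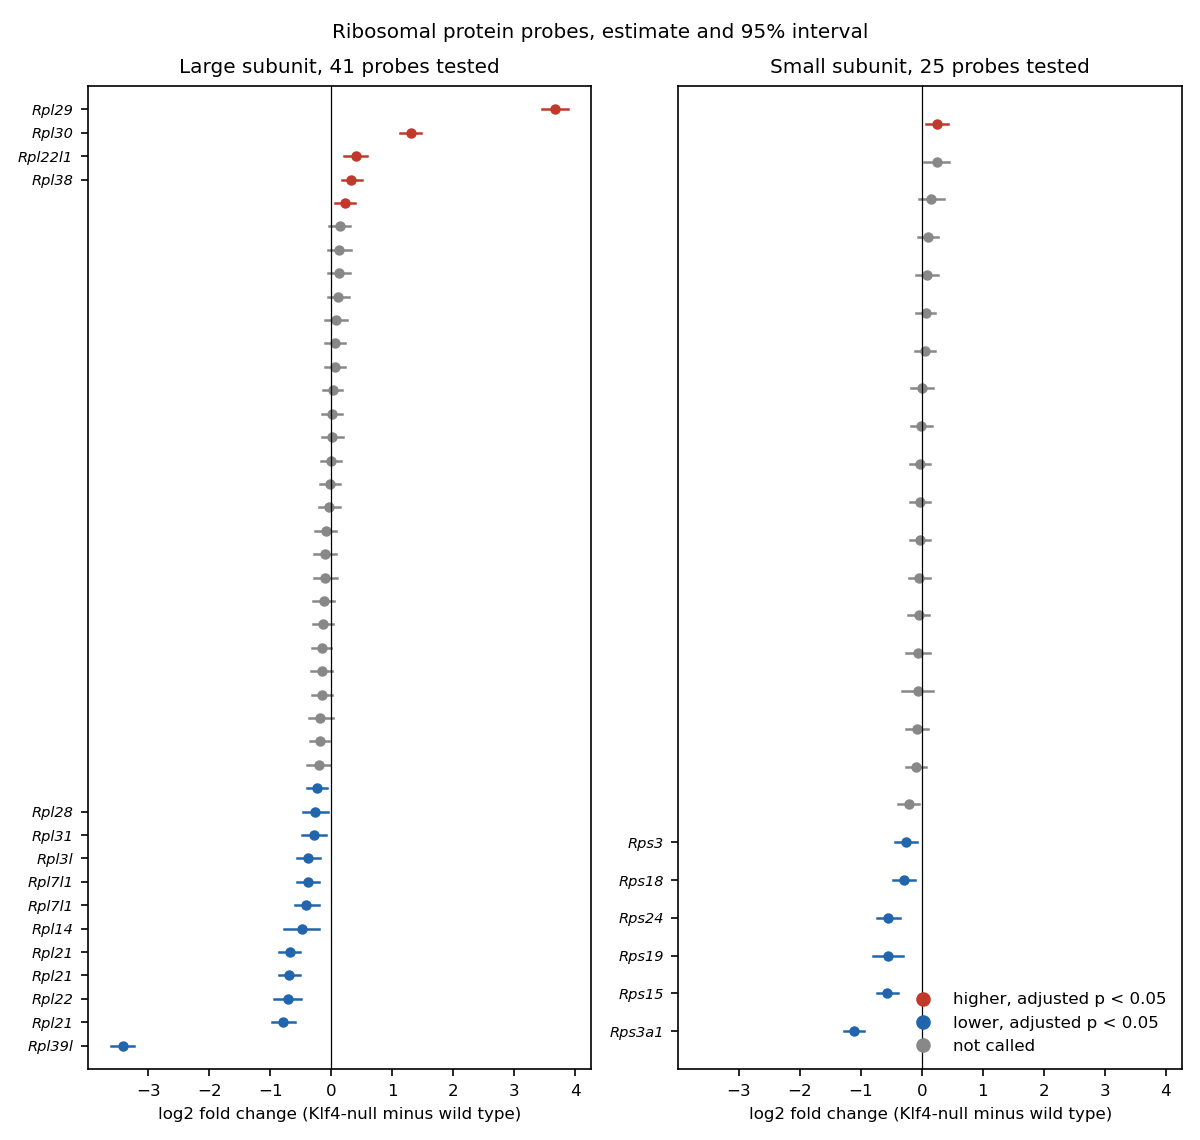
Log2 change (Klf4-null minus wild type, horizontal axis) of each tested ribosomal protein probe with its 95% interval, 41 of the large subunit on the left and 25 of the small subunit on the right. Red probes rose, blue probes fell and grey probes were not called, and called probes with a log2 change of at least 0.25 in size carry their gene name. Rpl29, at 3.67, and Rpl39l lie far from the other probes, Rpl39l, Rpl3l and Rps18 are drawn at fitted values although their null arrays are below background, and most grey intervals span 0.

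The subunits are given side by side, and the difference between them was not tested. In the large subunit, 5 of 41 tested probes rose and 12 fell, with a median log2 change of -0.10. In the small subunit, 1 of 25 rose and 6 fell, with a median of -0.04. Of all probes tested, 19.0% rose and 19.9% fell. The large-subunit falls include Rpl39l and Rpl3l, and the small-subunit falls include a probe of Rps18. These entered the test through the wild-type arrays alone and had to be lower in null cells. The counts of each subunit are therefore not read as a difference from the other probes. The small-subunit median was -0.02 without wild-type replicate 2 or null replicate 1, and -0.06 without null replicate 2 or 3. Taken array by array relative to the wild-type mean of each probe, the median of the large-subunit probes was -0.04 to 0.03 on the wild-type arrays and -0.08 on each null array. For the small subunit these medians were -0.01 to 0.01 and -0.06 to -0.03, and over all probes tested the null arrays lay at -0.03 to -0.02. The median of the large subunit thus lay below that of the small subunit on each null array (difference -0.06 to -0.02), and the difference ranged from -0.04 to 0.03 in wild type, so the ranges overlapped. Measured as a share of the summed intensity of the array, the 73 probes held 3.62 to 3.67% in wild type against 3.60 to 3.66% in null cells. The large-subunit share was 1.77 to 1.84% in wild type against 1.84 to 1.85% in null cells, and the small-subunit share was 1.83 to 1.85% and 1.77 to 1.80%. These shares are sums over probes of unequal brightness, so single probes weigh heavily in them. In the large subunit, Rpl30, described next, adds a bright probe that rose. In the small subunit, Rps15 and Rps3a1 fell (means of 19185 to 12973 and of 9823 to 4539), while Rps27l rose (16467 to 19525).

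Rpl29, a basic large-subunit protein that has also been described at the cell surface as a heparin-binding protein, showed the largest rise among the members. Its probe gave intensities of 276, 365 and 289 in wild type (309.8 ± 47.9 as mean ± SD, n = 3) and 4043, 3974 and 3766 in null cells (3928 ± 144). Every null array was far above every wild-type array. This was a 12.8-fold rise (log2 change 3.67 with SE 0.10, limma adjusted p = 2.4e-12). Rpl30, a large-subunit protein whose yeast counterpart restrains the splicing of its own transcript, gave 8534, 9225 and 9437 in wild type against 21724, 22091 and 23023 in null cells. The groups again stood well apart, and the rise was 2.46-fold (log2 change 1.30, SE 0.08, adjusted p = 1.0e-08). Each of these genes was read by 1 probe, so no second probe bears on the size of either change.

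Rpl39l fell furthest. It is the paralog of Rpl39, a small protein of the exit tunnel wall, and is known mainly from male germ cells. Its probe gave 437, 475 and 527 in wild type against 44.9, 47.7 and 41.2 in null cells. The null values were not above background, so the fall is a bound of at least 8.83-fold (means of 479 and 44.6), and limma gave an adjusted p of 1.7e-12. Rpl39 itself was not called, at 17240 to 18476 in wild type against 18224 to 18758 in null cells (log2 change 0.06, 95% interval -0.10 to 0.23, adjusted p = 0.578). The loss of signal was thus seen on the only probe of the paralog. This probe, 1 of Rpl3l and 1 of Rps18 entered the test through the wild-type arrays alone, so they had to be lower in null cells to enter it.

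Rps3a1, a small-subunit protein described in rat cells as an effector of transformation by v-fos, gave 9474, 10348 and 9648 in wild type against 4488, 4453 and 4674 in null cells. The groups did not overlap, and the level fell 2.16-fold (log2 change -1.11, SE 0.08, adjusted p = 4.5e-08). Rps15, whose yeast counterpart is needed for the small subunit to leave the nucleus, gave 19203, 19258 and 19094 in wild type against 12549, 13621 and 12749 in null cells. It fell 1.48-fold (log2 change -0.57, SE 0.08, adjusted p = 3.6e-05). These were the small-subunit genes with the largest falls, and each was read by 1 probe only.

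The paralogs Rpl22 and Rpl22l1 moved in opposite directions. Rpl22 is an RNA-binding protein of the large subunit, and in mice its loss is known to raise the level of Rpl22l1, its close copy. Rpl22 gave 1404, 1169 and 1609 in wild type against 817, 868 and 847 in null cells, a 1.64-fold fall (log2 change -0.71, SE 0.10, adjusted p = 8.4e-05). Rpl22l1 gave 322, 332 and 354 in wild type against 476, 399.6 and 456 in null cells, a 1.32-fold rise (log2 change 0.40, SE 0.09, adjusted p = 0.00208). For neither gene did the arrays of the groups overlap, and each gene was read by 1 probe only. Among the 24 called member probes, 17 kept their call whichever array was left out, and both of these were among them.

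**Figure D2:**
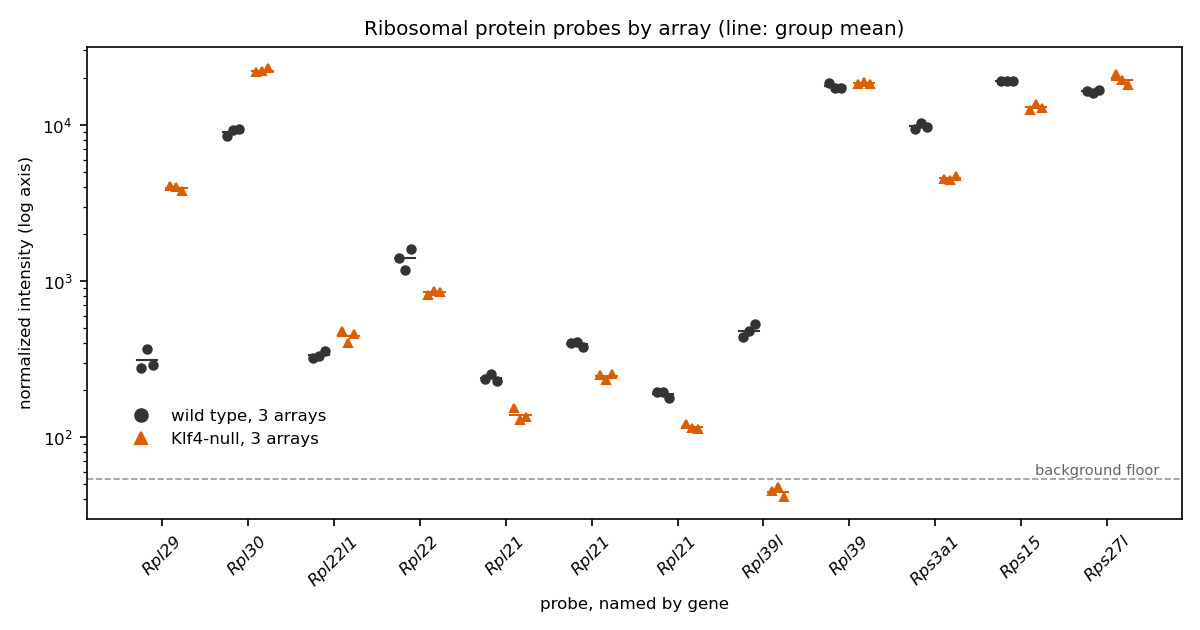
Normalized intensity on each array (vertical log axis) for 12 ribosomal protein probes named by gene on the horizontal axis, 3 wild-type arrays as circles and 3 Klf4-null arrays as triangles, with a line at each group mean. The dashed line is the mean background floor. Rpl29 and Rpl30 are higher in null cells, Rpl39l drops under the floor, and Rpl39 overlaps between the groups.

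The other paralogs were Rpl3l, Rps27l, Rpl7l1 and Rps4l. Rpl3l, the muscle form of Rpl3, was dim, at 55.1 to 65.3 in wild type, and not above background on any null array, where its mean was 45.9. The fall was at least 1.10-fold, and limma gave an adjusted p of 0.00381. Rps27l, a copy of Rps27 known in human cells as a p53 target, gave 16559, 16099 and 16742 in wild type against 21207, 19329 and 18037 in null cells (log2 change 0.24, SE 0.08, adjusted p = 0.0312). Without wild-type replicate 1 or 2 or null replicate 1 or 2 its adjusted p was 0.067 to 0.127. Of 3 Rpl7l1 probes, ILMN_1252768 and ILMN_2661407 fell, with log2 changes of -0.41 and -0.39 (adjusted p = 0.00223 and 0.00192). The third, ILMN_1249606, gave -0.13 and was not called (adjusted p = 0.193). Rps19bp1 was not called either, at -0.07 with an adjusted p of 0.701, and the probe of Rps4l (deposited as Rps4y2) was too dim to be tested.

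To set sequence beside these changes, promoter windows were taken from RefSeq (build GRCm38.p6), each with 250 bases before and 50 after an annotated transcription start. Of the 51 member genes, 38 matched, with 46 windows between them. Kruppel-like factors are known to bind CACCC and GC-rich boxes, so CACCC and GGGCGG were searched on both strands, with overlapping matches counted. CACCC was found in 58.7% of the member windows and in 57.5% of all 32851 windows, and GGGCGG in 65.2% and 35.7%. A run of at least 8 C or T within 25 bases of the start, on the sense strand, was found in 45.7% of the member windows and 19.7% of all windows. A match is a description of the letters and not evidence that a factor binds there. The 4 windows below belong to genes whose changes were described above and that matched, with CACCC or GGGCGG on either strand in capitals. They were picked without a set rule and serve as examples only. The window of Rpl39l (chr16:10169978-10170277, + strand) holds 1 CACCC and no GGGCGG. That of Rps3a1 (chr3:86142619-86142918, - strand) holds 1 of each, its GGGCGG on the opposite strand. For Rpl22 (chr4:152325476-152325775, + strand) neither was found here or in its other window. Rpl22l1 (chr3:28805258-28805557, + strand) holds 1 GGGCGG on the opposite strand.
Rpl39l: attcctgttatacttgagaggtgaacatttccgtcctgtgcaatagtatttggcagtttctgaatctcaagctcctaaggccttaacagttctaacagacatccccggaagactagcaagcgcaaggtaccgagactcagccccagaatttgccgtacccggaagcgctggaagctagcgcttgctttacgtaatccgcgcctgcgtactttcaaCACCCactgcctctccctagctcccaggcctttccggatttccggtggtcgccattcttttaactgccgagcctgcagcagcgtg
Rps3a1: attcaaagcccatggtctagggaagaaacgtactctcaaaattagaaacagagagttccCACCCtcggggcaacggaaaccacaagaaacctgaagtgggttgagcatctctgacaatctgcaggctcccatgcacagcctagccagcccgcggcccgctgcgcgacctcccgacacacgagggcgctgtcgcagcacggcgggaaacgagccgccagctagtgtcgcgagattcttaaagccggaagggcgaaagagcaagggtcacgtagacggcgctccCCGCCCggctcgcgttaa
Rpl22: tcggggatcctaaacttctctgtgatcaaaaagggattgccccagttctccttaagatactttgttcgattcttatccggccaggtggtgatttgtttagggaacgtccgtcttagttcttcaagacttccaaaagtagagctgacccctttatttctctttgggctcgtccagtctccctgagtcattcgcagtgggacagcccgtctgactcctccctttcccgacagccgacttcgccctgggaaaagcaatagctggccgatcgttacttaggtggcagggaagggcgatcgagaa
Rpl22l1: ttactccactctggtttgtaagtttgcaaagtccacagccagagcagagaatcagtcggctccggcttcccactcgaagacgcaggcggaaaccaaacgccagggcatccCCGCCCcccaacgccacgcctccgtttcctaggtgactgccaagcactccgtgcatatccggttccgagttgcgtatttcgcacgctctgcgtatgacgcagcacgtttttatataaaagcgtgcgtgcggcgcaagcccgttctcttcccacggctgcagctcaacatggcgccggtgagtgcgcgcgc

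Rpl21, a large-subunit protein whose gene is mutated in a human form of inherited hair loss, was read by 3 probes that all fell. Probe ILMN_1222250 gave 237, 252 and 228 in wild type against 154, 128 and 134 in null cells (log2 change -0.79, SE 0.09). On ILMN_2688863 the values were 194, 195 and 177 against 121, 115 and 113 (log2 change -0.69). ILMN_1225201 gave 402, 404 and 377 against 251, 233 and 252 (log2 change -0.68). The groups overlapped on none of the 3 probes, and the adjusted p-values were 6.9e-06 to 7.5e-06 by limma.

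Rpl38, a large-subunit protein that in mouse embryos favours the translation of Hox messages, rose on both of its probes. ILMN_1223383 went from 145, 158 and 146 to 192, 188 and 185 (log2 change 0.33, SE 0.08, adjusted p = 0.00317), and ILMN_2594971 from 4136, 3870 and 3823 to 4632, 4509 and 4708 (0.23, SE 0.08, adjusted p = 0.0285). The groups did not overlap on either probe. The call of the second probe was lost when any array other than wild-type replicate 1 was left out, with adjusted p-values of 0.0611 to 0.0925.

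For other genes the probes differed. Of the 13 tested genes with more than 1 tested probe, 2 were called on all of them in the same direction (Rpl21 and Rpl38), 5 on some and 6 on none. By limma no gene had probes called in opposite directions, and at an unadjusted p under 0.05 this held for 1 gene, Rps24. Rps24, mutated in some patients with Diamond-Blackfan anaemia, is made in several splice forms. Its probe ILMN_1214875 fell from 1136, 1143 and 1335 to 817, 819 and 832 (log2 change -0.55, SE 0.08, adjusted p = 1.3e-04). On ILMN_2625060 the values were 1255, 1537 and 1267 against 1702, 1500 and 1584, so the groups overlapped through wild-type replicate 2, and the log2 change of 0.24 (SE 0.09) was not called (adjusted p = 0.0581). Without that array it was 0.34 and passed (adjusted p = 0.00887). The third probe, ILMN_2502673, was dim and gave -0.08. Which splice forms the probes read is not given in the sources used here.

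Rps19, the gene most often mutated in the same anaemia, likewise gave unequal readings. Probe ILMN_2754355 fell from 380.3, 491 and 338 to 259, 285 and 269 (log2 change -0.56, SE 0.12, adjusted p = 0.00148), while ILMN_2461289 gave 114 to 123 and 111 to 125 (-0.01, adjusted p = 0.938). Rps3, which lies at the entry of the message channel and also acts in DNA repair, gave -0.05 on probe ILMN_1245399 (adjusted p = 0.676) and fell on ILMN_2637639, from 11427, 11308 and 11135 to 8971, 9050 and 10348 (log2 change -0.26, adjusted p = 0.0219). This fall was not called without wild-type replicate 1, null replicate 1 or null replicate 2 (adjusted p = 0.0618 to 0.0977). Of 2 dim Rps18 probes, ILMN_2747410 was above background on the wild-type arrays only and fell at least 1.13-fold (adjusted p = 0.0109, and 0.0518 without null replicate 3). The other, ILMN_2657409, gave 0.15 and was not called (adjusted p = 0.229).

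Further falls were modest and each rested on 1 probe. Rpl14 gave 212, 246 and 172 in wild type against 126, 152 and 172 in null cells, with its lowest wild-type and highest null array nearly meeting (log2 change -0.48, SE 0.13, adjusted p = 0.00929). Rpl31 gave -0.29 (adjusted p = 0.0211) and Rpl28 gave -0.26 (adjusted p = 0.0441). The arrays of the groups overlapped for Rpl28. Both calls were lost when replicate 1 or 2 of either group was left out, with adjusted p-values of 0.0563 to 0.0985 for Rpl31 and 0.0724 to 0.177 for Rpl28. Over all tested members, the groups did not overlap for 33 of 66 probes, against 47.3% of all probes tested.

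Several other members with known roles, in the ribosome or outside it, were not called. Rpl23, which binds Mdm2, gave log2 changes of -0.16, -0.12 and -0.04 on its 3 probes (adjusted p = 0.1, 0.284 and 0.779). Rpl13a, which in human cells joins a complex that silences inflammatory messages, gave 0.06 and 0.11 (adjusted p = 0.598 and 0.315). Rplp2, a protein of the stalk that recruits elongation factors, gave -0.10 (adjusted p = 0.433). The probes of the stalk protein Rplp0, of Rpl17 and of Rps20 were above background on no array, and the 2 probes of Rpsa, also known as a laminin receptor, were above it on 1 array each. With 1 further dim probe of Rpl18 and that of Rps4l, these make up the 7 member probes that were not tested. A dim reading of such a probe gives no level for the gene.

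Much of the group lay at the bright end of the array. Of the 280 tested probes with a mean intensity of 10000 or more, a bound chosen after the values were seen, 28 (10.0%) were members. Among these 28, 2 rose (Rpl30 and Rps27l) and 3 fell (Rps15 and Rps3 among them), which is 17.9% against 26.1% of all such bright probes. The 23 bright members that were not called had log2 changes of -0.21 to 0.14, and their 95% intervals lay between -0.40 and 0.31. They included Rps14, whose loss marks a form of human myelodysplasia, at -0.03, the shortest ribosomal protein Rpl41 at 0.14, and Rps2 and Rps9. The highest member value was 28089, close to the highest value of any probe, 30010, and whether such probes were near the limit of the scanner was not tested. Among the 12 members of mean intensity from 1000 to 10000, 2 rose and 4 fell, where 25.3% of all such probes rose and 28.3% fell. Among the 26 tested members under 1000, 2 rose and 11 fell, where 18.1% of all such probes rose and 18.8% fell. Of these 11, 3 (Rpl39l, Rpl3l and 1 probe of Rps18) entered the test through the wild-type arrays alone, so this count is given without being read as a difference from the other probes.

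**Figure D3:**
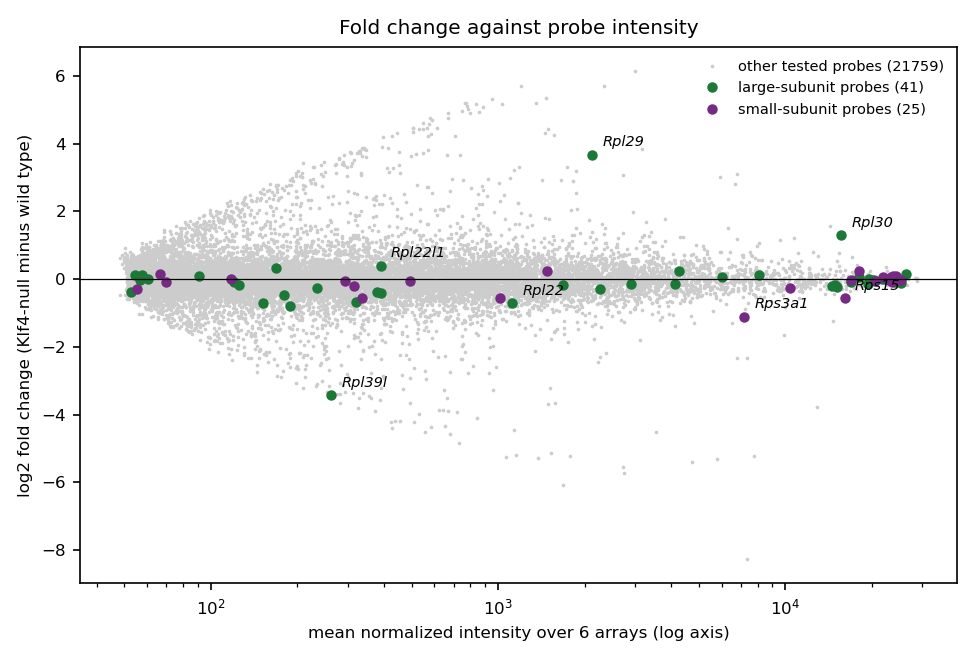
Log2 change (Klf4-null minus wild type) against mean normalized intensity over the 6 arrays (log axis) for the tested probes, with 41 large-subunit probes in green, 25 small-subunit probes in purple and all others in grey. Many members sit at intensities above 10000 and close to 0, and Rpl30, Rpl29, Rps3a1 and Rpl39l lie away from them.

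Mouse ribosomal protein genes have many processed pseudogenes, and near-identical copies may share probe signal. In the RefSeq gene table (GRCm38.p6), 36 of the 51 member genes have at least 1 pseudogene entry named after them, 181 in all, with 23 for Rpl31, 15 for Rpl21, 13 for Rps19, 10 for Rpl30 and 5 for Rpl29. Copies under other names were not counted, so a gene without an entry, such as Rps3a1, may still have copies. Probe sequences are not given in the sources used here, so which copy a probe reads is uncertain for all members.

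Genes that build, supply or regulate the ribosome are set beside the members with 1 probe per gene, the brightest. Their limma p-values were adjusted over the 16213 gene entries tested, of which 40.4% were called (19.5% rose and 20.9% fell). On this basis 5 of 46 cytosolic ribosomal protein genes rose and 12 fell, with a median log2 change of -0.06 against -0.03 for all genes. These falls include Rpl39l and Rpl3l, which entered the test through the wild-type arrays alone. Mitochondrial ribosomal proteins, which form the separate ribosome inside mitochondria, had a median of -0.18, with 5 of 72 higher and 32 lower. Mrpl24 rose 2.00-fold, from 737 to 812 up to 1511 to 1595, while the brightest probe of Mrps11 fell 1.60-fold, from 1599 to 1891 down to 1080 to 1119. Mrps12 rose on both of its probes (log2 change 0.93 and 1.51). Mrps10 was called in both directions, at -0.66 on its brightest probe and 1.32 on ILMN_2769630. Its probe ILMN_2600672 was also called, with a fall of at least 1.09-fold to below background. That probe entered the test through the wild-type arrays alone, so it had to be lower in null cells.

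Of 47 ribosome biogenesis genes, 12 rose and 7 fell, with a median of 0.03. Nop14, an assembly factor of the small subunit, rose 1.79-fold (log2 change 0.84, adjusted p = 1.4e-04), and Nolc1, a nucleolar phosphoprotein, rose on both probes (0.80 and 0.47). Taf1a, a subunit of the RNA polymerase I selectivity factor, rose 1.64-fold on its brightest probe, its other probe giving -0.16 (adjusted p = 0.121). Nle1, an assembly factor of the large subunit, fell 1.70-fold (log2 change -0.76).

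Among translation factors, 9 of 35 initiation factor genes rose and 6 fell (median -0.11), and 3 of 10 elongation and release factor genes rose and 2 fell (median 0.06). Eif2s1, the alpha subunit of the initiation factor that carries the first transfer RNA, rose 2.52-fold, from 63.0, 66.7 and 72.8 to 171, 171 and 167 (adjusted p = 7.0e-09). Eif3b rose 1.77-fold. The helicase Eif4a2 fell 1.85-fold on its brightest probe and 1.35-fold on the other, and the exchange factor subunit Eif2b5 fell 1.73-fold on both of its probes. The elongation factor kinase Eef2k gave 0.47 on its brightest probe and -0.25 on another, both called. Eef1e1, a partner of the transfer RNA synthetases, rose by 0.29 on the log2 scale, while the release factor Gspt1 fell by 0.33 and Eif5a fell by 0.31 on its brightest probe.

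Of 19 tested genes of growth control of the ribosome, 7 rose and 2 fell, with a median of 0.15. Larp4, a binder of poly(A) tails, rose 1.48-fold (log2 change 0.56, adjusted p = 5.4e-04), Mxi1, an antagonist of Myc, rose by 0.42 on its brightest probe, and the S6 kinase Rps6ka3 rose by 0.39. Tia1, which binds messages of ribosomal proteins under stress, fell by 0.54 on its brightest probe. Larp1, which holds such messages back when mTOR is inactive, rose 1.24-fold on its brightest probe (0.31, adjusted p = 0.00494), its other probes giving 0.18 and 0.23 without a call. Myc was not called (log2 change 0.13, adjusted p = 0.227), and neither was Mtor (0.15, adjusted p = 0.401).

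**Figure D4:**
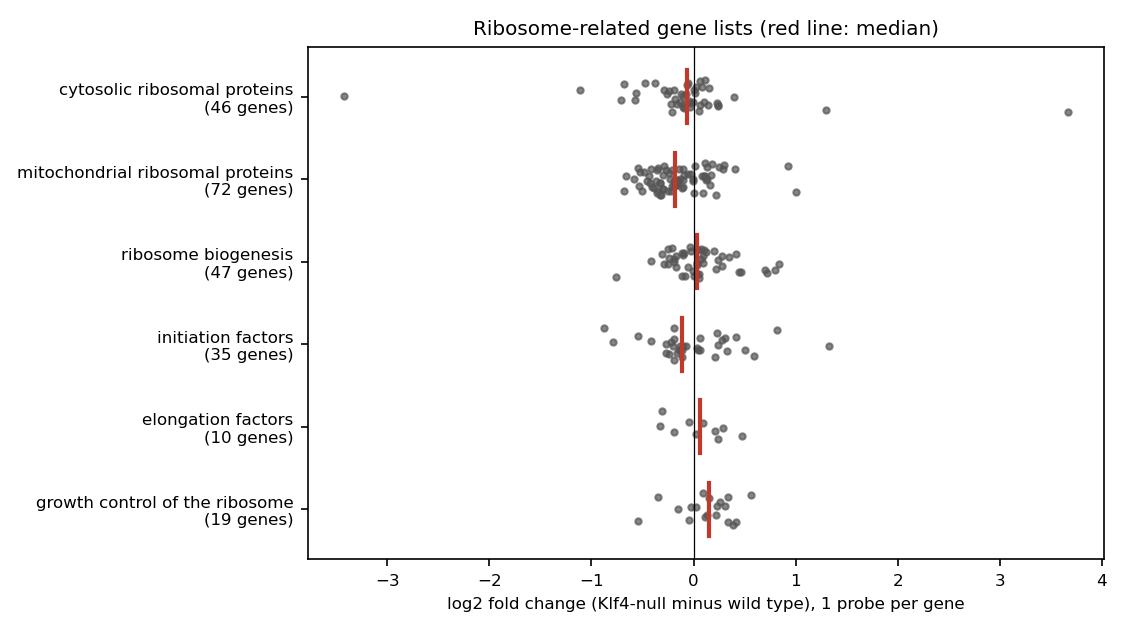
Log2 change (Klf4-null minus wild type, horizontal axis) of each tested gene, 1 probe per gene, for the cytosolic ribosomal proteins and 5 related gene lists, with the list median as a red line. Points are scattered vertically for legibility. The medians lie between -0.18 for mitochondrial ribosomal proteins and 0.15 for growth control, and the cytosolic list holds the widest values, those of Rpl29 and Rpl39l.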

How the data were processed

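Biotinylated cRNA was hybridised to Illumina arrays, per the labels' protocols. The authors deposited 1 linear, positive intensity per probe and array. That these had been normalized between arrays was read from the values, whose lowest and highest are the same on every array and whose quantiles nearly coincide. The software, normalization method and annotation used upstream are not given in the sources used here. Another deposited table served only to pair probes with symbols, because its 12 columns of signals and detection p-values match no sample's labels. The members, lists, naming rule and tests were chosen with earlier results of these data known. A linear model of the log2 of the deposited intensities, with genotype as its only term, was run in limma 3.58.1 (R 4.3.3) with moderated variances, and 2-sided p-values were adjusted by Benjamini-Hochberg over all probes tested. The background floor of an array was the 95th percentile of the distribution below the mode mirrored above it, at intensities of 54.0 to 54.2. For probes under the floor on every array of a group, the fold is a lower bound, computed against the higher of floor and signal. Genes were named by rule: the 10 largest called rises and falls without overlap, paralogs, stalk proteins, members with roles outside the ribosome, and the 4 largest called changes of each list. Rpl17, Rpl18, Rpl28, Rpl31, Rpl41, Rps2, Rps9, Rps14, Rps18, Rps19bp1, Rps20, Larp1, Myc and Mtor were named in addition after their values were seen. Some members are not reported by name here. Symbols were updated through RefSeq, which changed 2 member symbols. The model was tested on simulated data. Alternatives were other filters, normalizations, offsets, variance estimates, a replicate block and leaving out each array. The number of arrays limits the precision.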

Additional observations from a re-analysis of the deposited data

How the results depend on the processing

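Of the 24 called member probes, none changed direction under any alternative, and the 4 with changes above 2-fold (Rpl29, Rpl30, Rpl39l and Rps3a1) kept their calls under all that tested them. A test against a fold change of 1.5 left 2 rises and 2 falls among the members, and 1766 instead of 8483 calls over all probes, as its threshold is stricter. With unmoderated variances, 7 of the 24 calls were lost. Repeating quantile normalization, centring each array, normexp with an offset of 50 and adding 16 before log2 lost none. Leaving out 1 array gave 4 to 5 rises and 14 to 19 falls, with 7174 to 8248 of all 21825 probes called. The medians were then -0.13 to -0.10 for the large subunit and -0.06 to -0.02 for the small one. Deviations of same-numbered samples from their group means correlated at -0.23 to 0.05, against -0.26 to 0.27 for other numbers. With so few arrays per group, these values cannot settle whether the replicate numbers pair the samples. With the replicate block, 5 member probes rose and 17 fell, and 8052 probes were called in all. An alternative without Rpl7l1, Rps19bp1 and the paralogs was added after the data were seen. In it, 4 of 58 tested probes rose (6.90%) and 14 fell (24.1%), against 19.0% and 19.9% of all probes tested. These falls still include the probe of Rps18 that entered the test through the wild-type arrays alone. They are not read as a difference from the other probes.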
